A study of Homo sapiens with 6 samples.

Results

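The genes described here encode enzymes that add sialic acid or fucose to glycoproteins and glycolipids, or N-acetylgalactosamine (GalNAc) to serine or threonine of proteins. They were chosen by name, as the protein-coding rows of the count table whose symbol is ST3GAL, ST6GAL, ST6GALNAC, ST8SIA, FUT or GALNT followed by a number, a rule that uses no measured value. The gene families that the rule names were, however, chosen with earlier results of these data known. The rule took 49 of the 58721 genes in the table: 20 sialyltransferases, 11 fucosyltransferases and 18 GalNAc-transferases. Their RNA was counted by sequencing 6 libraries from A375, an established human melanoma line. Of these, 3 libraries came from cells with a guide RNA against mCherry, a fluorescent protein gene foreign to the human genome, and a genotype given as WT (control), and 3 from cells with a guide RNA against SOX10 and a genotype given as SOX10 knockout. SOX10 encodes a transcription factor that acts in neural crest cells and in the melanocytes and glia they form. The labels give no treatment or time, and do not say whether the knockout cells were a clone or a pool, or whether replicates were separate cultures, so the p-values rest on library-to-library spread alone, possibly technical.

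Sialic acid, an acidic sugar, caps the outer ends of many glycans. ST3GAL enzymes join it to carbon 3 of galactose, ST6GAL enzymes to carbon 6 of galactose, ST6GALNAC enzymes to carbon 6 of GalNAc, and ST8SIA enzymes to carbon 8 of another sialic acid. Gangliosides are glycolipids that carry sialic acid; GM3 is made by ST3GAL5, GD3 is made from GM3 by ST8SIA1, and GD3 and its product GD2 are known surface antigens of neural crest cells and melanoma. GALNT enzymes start mucin-type O-glycans by joining GalNAc to serine or threonine, and FUT enzymes add fucose to core or outer sugars. RNA levels of these enzymes were compared here; glycans and enzyme activities were not measured.

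Total gene counts lay between 70075002 (knockout replicate 1) and 78148565 (knockout replicate 3), so that 3 counts, taken as the lowest level told apart from 0, equalled 0.0383 to 0.0417 CPM (counts per 1000000, with library sizes scaled by TMM); this floor covers counting error only. The members together held 0.0944% to 0.104% of the counts. SOX10 stood at 240.8, 237.2 and 223.1 CPM in the control libraries and 47.2, 47.8 and 41.5 CPM in the knockout libraries, or -2.36 on the log2 scale (standard error, SE, 0.08; edgeR quasi-likelihood test with Benjamini-Hochberg adjustment, adjusted p = 1.84e-07). An exact two-sided permutation test of its log2 CPM returned p = 0.1, the lowest that this design can reach. Of 7 tested melanocyte markers 2 rose and 3 fell, the targeted SOX10 itself being counted among those that fell. MITF went from 57.5 ± 2.15 to 138.4 ± 2.29 CPM (mean ± SD, n = 3), S100B from 32.9 ± 4.34 to 1.28 ± 0.134 CPM and the pigment gene DCT from 1.62 ± 0.175 to 0.0657 ± 0.0258 CPM. The means of the pigment cell markers PMEL, MLANA and TYRP1 were below 1 CPM in both groups, though TYRP1 rose, and TYR had 1 count in all 6 libraries together. Summed CPM of the 6 fibroblast markers was 10.6 to 14.2 in controls and 18.5 to 20.9 in knockouts, with 4 higher (LUM, COL1A1, COL3A1 and THY1) and PDGFRA lower. That of the 5 keratinocyte markers, most of it KRT10, was 48.2 to 64.3 and 52.1 to 66.6, while KRT14 fell from 7.16 ± 0.789 to 0.249 ± 0.0110 CPM and KRT5 rose from 0.110 ± 0.00185 to 0.788 ± 0.0964 CPM. That of the 4 endothelial markers was 1.35 to 1.59 and 3.38 to 4.21, with PECAM1 3.86-fold and CDH5 4.54-fold higher, and that of the 4 leukocyte markers, nearly all of it LYZ, which fell, was 10.7 to 14.2 and 1.43 to 2.12. Of these lists CDH1, KRT1, VWF, PTPRC, CD3E and CD79A had at most 13 counts in any library. The part of these shifts in the results below was not tested.

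ST6GAL1, which caps N-glycans with sialic acid at carbon 6 of galactose, changed more than any other member tested. It stood at 97.5, 97.0 and 87.9 CPM in the control libraries and at 8.96, 7.71 and 8.11 CPM in the knockout libraries. The groups lay far apart, with means of 94.1 ± 5.42 and 8.26 ± 0.638 CPM (n = 3). ST6GAL1 (ENSG00000073849; GRCh38 chromosome 3, 186930485 to 187078553, plus strand) thus fell 11.4-fold (log2 fold change -3.51, SE 0.08; edgeR test, adjusted p = 5.17e-08), the 155th lowest log2 fold change of 19263 tested genes. In cultured bulk cells, fewer cells with the RNA and less RNA per cell cannot be told apart. Its relative ST6GAL2 had 1 count in all libraries together and was not tested.

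Across the members, 31 of 49 passed the filter on low counts and were tested. In knockout libraries 9 rose and 9 fell at an adjusted p under 0.05 (edgeR quasi-likelihood test). The 18 changed members were 58.1% of those tested, beside 28.0% of all 19263 genes tested (14.0% higher and 14.0% lower). The families were chosen with earlier results of these data known, so the difference between these shares is a description without a test. The median log2 fold change of the 31 was 0.03, beside -0.02 over all tested genes. All knockout libraries lay on one side of all control libraries in 19 of the 31, beside 41.6% of all tested genes. The changes of the 18 ranged from 1.14-fold (GALNT11) to 11.4-fold, with a median of 1.74-fold. Of the 31 tested members 5 passed the threshold with a 2-fold or larger change, beside 10.8% of all tested genes. Among genes past the threshold, 5 of the 18 members reached 2-fold, beside 2084 of 5396 over all genes. By family, 11 of 13 tested sialyltransferases changed (4 higher, 7 lower), 7 of 12 GalNAc-transferases (5 higher, 2 lower) and 0 of 6 fucosyltransferases; the difference between families was not tested. Over all genes 2694 were higher and 2702 lower; without knockout replicate 2 the lower genes numbered 1794, and scaling by total counts alone gave 3021 higher and 2144 lower (58.5% higher, beside 49.9%).

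**Figure D1:**
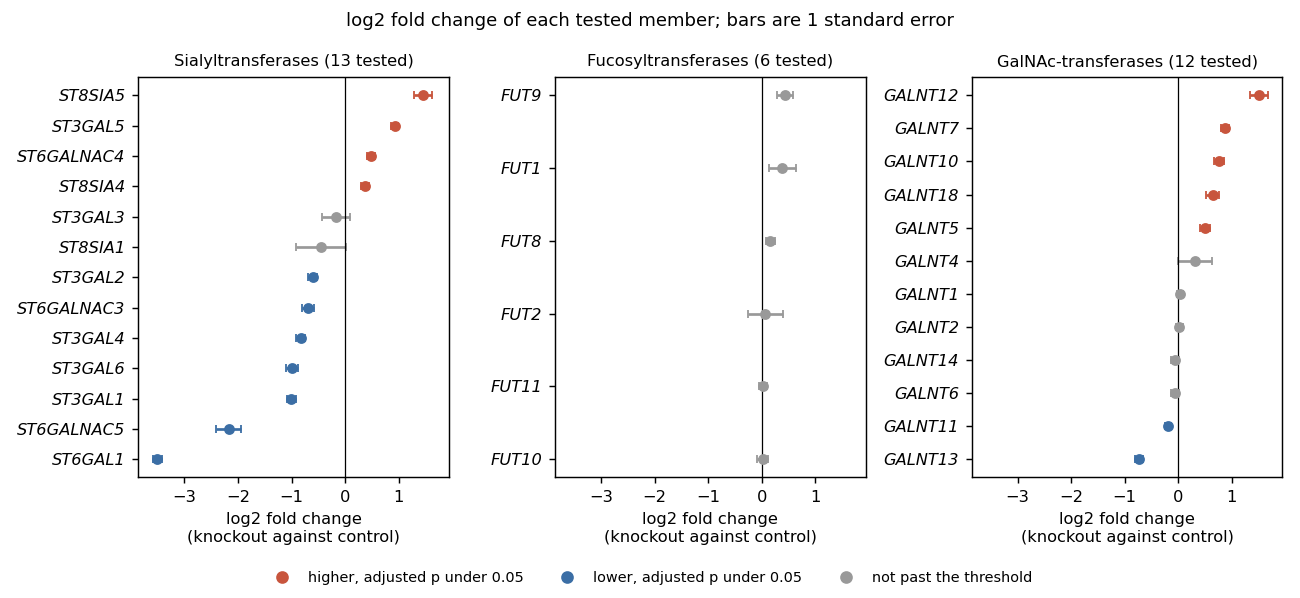
Log2 fold change of knockout against control libraries (horizontal axis) for the 31 tested members in 3 panels by family, with bars of 1 SE; red points passed the threshold as higher, blue as lower, grey did not pass. ST6GAL1 lies farthest from 0 at -3.51, and all 6 fucosyltransferases are grey.

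Of the 18 members not tested, FUT3, FUT5, FUT7, ST6GALNAC1 and ST8SIA3 had 0 counts in all libraries, which allows up to 0.0417 CPM. Another 7 (FUT6, GALNT3, GALNT9, GALNT16, GALNT17, ST6GAL2 and ST8SIA6) had at most 3 counts in any library. The other 6, FUT4, GALNT8, GALNT15, ST6GALNAC2, ST6GALNAC6 and ST8SIA2, reached at most 15 counts in a library, the highest being FUT4 in control replicate 1. The near-identical FUT3, FUT5 and FUT6 lie side by side on chromosome 19, and the sources do not state how reads matching more than 1 copy were counted, so their low counts are uncertain. ST6GALNAC6 shares 2494 of its 5307 exon bases with AL157935.2 on the same strand, so its count is uncertain.

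Changes of 2-fold or more were found in 5 members. Apart from ST6GAL1 they were ST6GALNAC5, ST3GAL1, ST8SIA5 and GALNT12. ST6GALNAC5, which adds sialic acid to GalNAc of gangliosides, stood at 1.17, 1.28 and 1.71 CPM in controls and at 0.333, 0.255 and 0.332 CPM in knockouts. The groups did not overlap, and the gene fell 4.50-fold from a low level (log2 fold change -2.17, SE 0.23; edgeR test, adjusted p = 1.73e-04). GALNT12, a starter of O-glycans, stood at 0.959, 0.890 and 0.652 CPM in controls and 2.58, 2.18 and 2.36 CPM in knockouts. Every knockout library lay above every control library, a 2.84-fold rise (log2 fold change 1.51, SE 0.17; edgeR test, adjusted p = 2.66e-04). ST3GAL1 and ST8SIA5 are described with their families below.

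**Figure D2:**
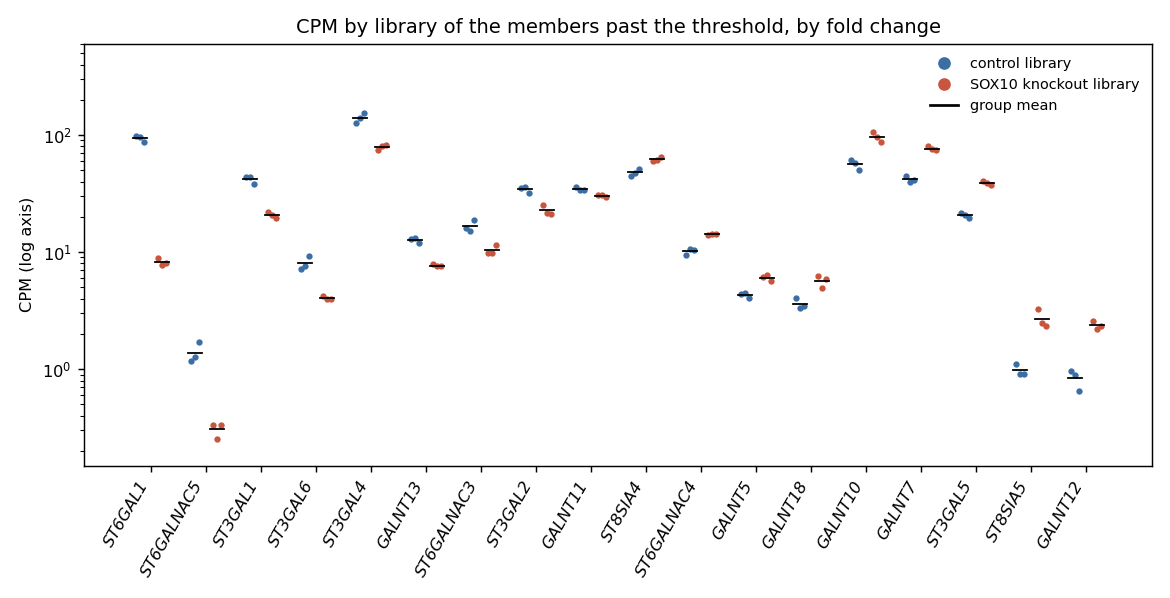
CPM (log axis) of the 18 members past the threshold, ordered from the lowest to the highest fold change, with 1 point a library (blue control, red SOX10 knockout) and a line at each group mean. In all 18 the 3 knockout points lie wholly above or below the 3 control points, and ST6GAL1 falls from 94.1 to 8.26 CPM.

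The stretches before the RefSeq start of the strongest members with a single listed start are shown to set those that fell beside those that rose. Each is read on the plus strand of GRCh38.p14 from 250 bases before the RefSeq start, and is shown up to the first annotated exon of that gene or, for GALNT12, the RefSeq start; which start these cells use was not measured. Capitals mark the GC box, GGGCGG or its reverse complement. The first pair fell, ST6GAL1 (chr3:186930276-186930484) and ST6GALNAC5 (chr1:76867230-76867440), and the second pair rose, GALNT12 (chr9:98807420-98807669) and GALNT7 (chr4:173168561-173168752).
ST6GAL1: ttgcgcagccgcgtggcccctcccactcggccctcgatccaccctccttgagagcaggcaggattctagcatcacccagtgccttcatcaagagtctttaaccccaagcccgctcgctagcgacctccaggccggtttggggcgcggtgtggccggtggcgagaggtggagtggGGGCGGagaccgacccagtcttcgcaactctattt
ST6GALNAC5: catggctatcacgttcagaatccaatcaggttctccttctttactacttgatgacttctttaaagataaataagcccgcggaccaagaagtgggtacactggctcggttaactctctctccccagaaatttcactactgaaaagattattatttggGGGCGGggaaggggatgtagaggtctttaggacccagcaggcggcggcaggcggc
GALNT12: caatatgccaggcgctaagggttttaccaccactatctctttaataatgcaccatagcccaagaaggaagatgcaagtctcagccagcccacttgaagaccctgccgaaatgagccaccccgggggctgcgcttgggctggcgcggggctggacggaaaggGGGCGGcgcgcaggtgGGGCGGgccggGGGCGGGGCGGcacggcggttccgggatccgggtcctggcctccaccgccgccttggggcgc
GALNT7: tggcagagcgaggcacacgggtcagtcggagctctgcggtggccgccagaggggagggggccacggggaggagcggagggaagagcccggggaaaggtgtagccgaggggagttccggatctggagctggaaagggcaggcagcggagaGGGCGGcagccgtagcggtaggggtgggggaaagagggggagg

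GC boxes stand in all 4 stretches, 4 of them in GALNT12 between 89 and 57 bases before the RefSeq start. RefSeq windows of 250 bases were matched for 34 of 49 members (56 windows, as some members have several starts). A GC box was in 8 of the 10 windows of members that rose and 8 of the 13 windows of members that fell, beside 62.5% of all member windows and 42.6% of 35116 windows of all genes. The SOX core ACAAT, searched on both strands, was in 0 of the 10 windows of members that rose and 4 of the 13 of members that fell (those of GALNT13, ST3GAL4 and ST3GAL6), beside 12.5% of all member windows and 24.6% of all windows. It was not in the window of ST6GAL1 or ST6GALNAC5. Windows of 1 gene can overlap, so these counts describe the windows only. Of those with the SOX core, the GALNT13 windows begin at 153068043 and 153477651 on chromosome 2. They lie before the counted gene, which starts at 153871913. The windows with the SOX core of ST3GAL4 (from 126403166) and ST3GAL6 (from 98733206) lie within the counted genes. Of the 56 windows 3 held CACGTG, 2 held CATGTG and 2 held the AP-1 site TGANTCA (5.36%, 3.57% and 3.57%, beside 6.34%, 9.42% and 6.57% of all windows).

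Among the ST3GAL genes 4 of 6 fell, 1 rose and 1 did not pass the test. ST3GAL4, which caps N-glycans and other galactose ends, was the most abundant sialyltransferase per exon length, and stood at 125.9, 139.0 and 155.1 CPM in controls and 74.1, 80.6 and 81.5 CPM in knockouts. The groups did not overlap, and it fell 1.78-fold (log2 fold change -0.83, SE 0.09; edgeR test, adjusted p = 1.35e-04). ST3GAL1, which caps the core 1 O-glycan made after the GALNT step, stood at 43.8, 43.6 and 38.0 CPM in controls and 22.1, 20.8 and 19.6 CPM in knockouts. This was a 2.01-fold fall with no overlap (log2 fold change -1.01, SE 0.08, adjusted p = 3.12e-05). ST3GAL2, which acts on O-glycans and gangliosides, fell from 34.5 ± 2.09 to 22.7 ± 2.34 CPM. ST3GAL6, which acts on N-glycans and glycolipids, fell from 8.03 ± 1.11 to 4.06 ± 0.144 CPM.

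ST3GAL5, the GM3 synthase and thus the first sialyltransferase of the ganglioside route, went the other way. It stood at 21.4, 21.0 and 19.4 CPM in controls and 40.9, 39.1 and 37.5 CPM in knockouts. All knockout libraries were above all controls, a 1.90-fold rise (log2 fold change 0.93, SE 0.07; edgeR test, adjusted p = 1.70e-05). ST3GAL3, at 0.786 ± 0.265 CPM in controls and 0.700 ± 0.0574 CPM in knockouts, was not called (adjusted p = 0.699). ST3GAL6 shares 235 of its 6288 exon bases with DCBLD2 on the opposite strand, which had 62340 to 119877 counts a library and rose (log2 fold change 0.75), opposite to ST3GAL6. As the sources do not state whether counting used strand, reads of the shared bases cannot be assigned with certainty. Exons of another gene overlap those of 25 members, 7 of them among the 18 called: ST3GAL6, ST3GAL2, ST8SIA5, GALNT7, GALNT10, GALNT11 and GALNT12.

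All 3 tested ST6GALNAC genes changed, in both directions. ST6GALNAC3, which like ST6GALNAC5 acts on gangliosides, fell from 16.7 ± 1.97 to 10.4 ± 1.04 CPM (1.61-fold). ST6GALNAC4, which adds a sialic acid to sialylated core 1 O-glycans, rose from 10.2 ± 0.546 to 14.2 ± 0.203 CPM (1.40-fold, edgeR adjusted p = 0.00110). The pair that fell are neighbours on chromosome 1, ST6GALNAC3 at 76074719 to 76634601 and ST6GALNAC5 at 76867441 to 77065711, with 233 kb between them. ST6GALNAC4 and ST6GALNAC6 lie 2.48 kb apart on chromosome 9, but the second had too few counts to be tested.

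ST8SIA genes make chains of sialic acid, ST8SIA2 and ST8SIA4 on proteins (polysialic acid) and ST8SIA1 and ST8SIA5 on gangliosides. ST8SIA1, the GD3 synthase, had 26, 7 and 23 counts in control and 14, 13 and 16 counts in knockout libraries, or 0.258 ± 0.143 and 0.188 ± 0.0198 CPM. The groups overlapped and it was not called (log2 fold change -0.45, SE 0.47; edgeR test, adjusted p = 0.547). A small change is not detectable at these counts and this spread. ST8SIA5, which extends gangliosides further, stood at 1.11, 0.917 and 0.915 CPM in controls and 3.24, 2.50 and 2.33 CPM in knockouts. It rose 2.74-fold without overlap (log2 fold change 1.45, SE 0.17; edgeR test, adjusted p = 3.41e-04). ST8SIA4 rose from 47.9 ± 3.25 to 62.1 ± 2.27 CPM (1.30-fold, adjusted p = 0.00414), whereas ST8SIA2, the other polysialic acid synthase, had at most 4 counts in a library.

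Compared per kilobase of exon, the summed level of the 20 sialyltransferases was 62.0 to 68.3 CPM per kb in control and 40.6 to 42.1 CPM per kb in knockout libraries. ST3GAL4 made up 48.0% ± 2.70 of this sum in control and 42.6% ± 1.47 in knockout libraries (n = 3 each). ST6GAL1 made up 15.8% ± 1.60 in control and 2.18% ± 0.202 in knockout libraries, moving from the 4th to the 20th place among the 49 members. The share of ST8SIA4 was 9.42% ± 0.213 in control and 19.2% ± 0.374 in knockout libraries, and that of ST6GALNAC4 5.92% ± 0.199 and 13.1% ± 0.132. ST3GAL5 held 1.94% ± 0.190 and 5.80% ± 0.356. A share rises when the sum falls, and these shares are descriptions without a test. Exon length was taken over all annotated transcripts, which lowers the level of genes with many of them, such as ST3GAL3 (19475 bases) and ST3GAL5 (16318 bases).

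**Figure D3:**
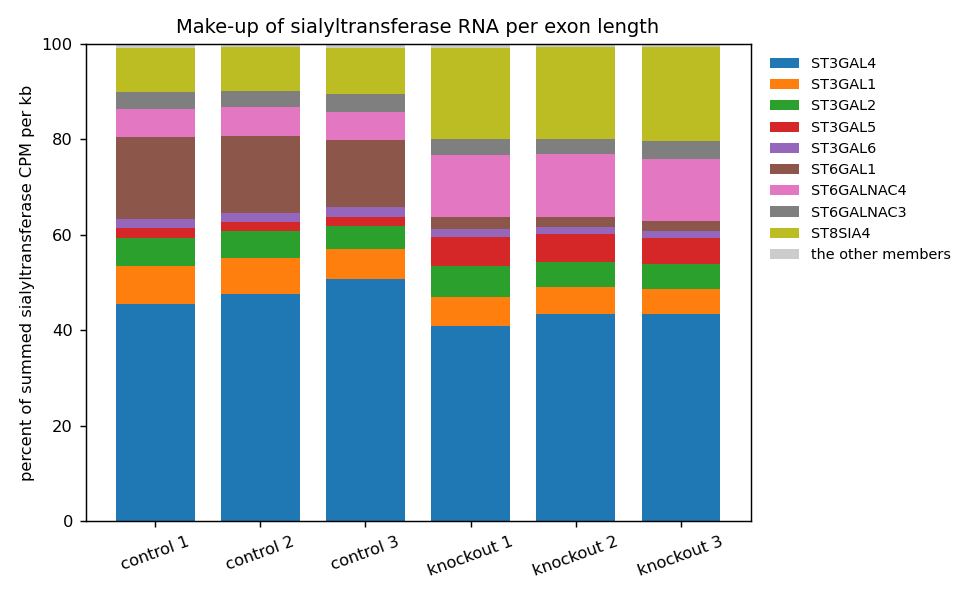
Share in percent of the summed sialyltransferase CPM per kb of exon (vertical axis) held by 9 members and by the others together, with 1 bar a library. The band of ST6GAL1 shrinks from 14.0 to 17.2% in control to 2.03 to 2.41% in knockout libraries, while that of ST8SIA4 widens to 19.0 to 19.7%.

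Of the 12 tested GalNAc-transferases 5 rose and 2 fell, and the most abundant pair did not pass the test. GALNT2, the most abundant of all 49 members per exon length, stood at 252.3, 251.0 and 233.0 CPM in controls and 263.3, 251.2 and 232.8 CPM in knockouts. These values overlap, with a log2 fold change of 0.02 and an SE of 0.07 (edgeR adjusted p = 0.858). GALNT1 stood at 94.5 ± 3.71 and 96.5 ± 2.34 CPM (log2 fold change 0.03, SE 0.06, adjusted p = 0.758). In control libraries GALNT2 (31.7 ± 1.39 CPM per kb) and ST3GAL4 (31.4 ± 3.29 CPM per kb) did not differ beyond their spread, and GALNT1 followed at 18.4 ± 0.723 CPM per kb.

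GALNT7 and GALNT10 prefer substrates that already carry a GalNAc, and both rose. GALNT7 went from 41.9 ± 2.66 to 76.7 ± 3.14 CPM (1.83-fold, edgeR adjusted p = 2.74e-05) and GALNT10 from 56.8 ± 5.58 to 96.7 ± 8.99 CPM (1.70-fold, adjusted p = 4.04e-04). GALNT18 rose from 3.64 ± 0.383 to 5.68 ± 0.651 CPM and GALNT5 from 4.30 ± 0.199 to 6.06 ± 0.315 CPM. GALNT13, known from neural tissue, fell from 12.8 ± 0.650 to 7.68 ± 0.165 CPM (1.66-fold, adjusted p = 1.23e-04). GALNT11 fell from 34.7 ± 0.917 to 30.3 ± 0.475 CPM (1.14-fold, adjusted p = 0.0388), a call lost in 9 of 13 alternatives, with adjusted p between 0.0509 and 0.147 in those 9. GALNT14 (17.7 ± 0.543 and 17.0 ± 1.26 CPM), GALNT6 (10.1 ± 0.340 and 9.72 ± 0.327 CPM) and GALNT4 (0.510 ± 0.172 and 0.633 ± 0.193 CPM) did not pass. GALNT4 shares 5033 of its 5399 exon bases with the read-through gene POC1B-GALNT4, so its level is uncertain. Per exon length the family summed to 73.1 to 77.0 CPM per kb in control and 81.3 to 87.6 CPM per kb in knockout libraries.

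None of the 6 tested fucosyltransferases passed the test; 1 had an unadjusted p under 0.05, FUT9, which makes the Lewis x structure in neural cells. FUT9 stood at 1.68, 1.25 and 1.43 CPM in controls and 1.99, 2.04 and 1.87 CPM in knockouts, without overlap (log2 fold change 0.44, SE 0.15; edgeR test, adjusted p = 0.0605). It passed in 4 of 13 alternatives (adjusted p = 0.0183 to 0.0495); in DESeq2 and limma-voom, as in edgeR, 0 fucosyltransferases passed, FUT9 having adjusted p = 0.0879 and 0.0534. FUT8, which adds the core fucose of N-glycans and was the most abundant of the family per exon length, stood at 45.9, 49.1 and 50.7 CPM in controls and 49.8, 55.3 and 58.2 CPM in knockouts. The groups overlapped (log2 fold change 0.16, SE 0.08, adjusted p = 0.155), and FUT8 passed in 1 of 13 alternatives, the fit with the replicate number as a block (adjusted p = 3.80e-04). FUT11 (29.3 ± 2.08 and 29.9 ± 1.51 CPM) and FUT10 (12.7 ± 1.18 and 12.9 ± 1.10 CPM) were close to equal in both groups, with log2 fold changes of 0.03 (SE 0.07) and 0.02 (SE 0.10). FUT1 and FUT2, which make the H antigen and lie 42.1 kb apart on chromosome 19, were below 1 CPM in all libraries. FUT4, which makes Lewis x in many cells, had 1 to 15 counts a library.

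The other genes of these routes were described from 6 lists, whose shares of called genes stand beside 28.0% of all tested genes (14.0% in each direction) and a median log2 fold change of -0.02. The lists too were chosen with earlier results of these data known, so these shares are descriptions without a test. Among 7 core enzymes of ganglioside and related glycolipid synthesis 4 fell, 1 rose and 2 did not pass (71.4% called, median -0.54). B4GALNT1, the GM2 and GD2 synthase, fell from 28.0 ± 1.93 to 9.73 ± 0.685 CPM (log2 fold change -1.53, SE 0.08, edgeR test, adjusted p = 2.94e-06). Its exons overlap those of SLC26A10. Such overlaps were also found for SOX10 (POLR2F), GCNT1 (PRUNE2), GALK2 (COPS2 and FAM227B) and MCAM (CBL), among other genes named here. B4GALT5 and B4GALT6, which make lactosylceramide, fell from 190.6 ± 10.3 to 131.0 ± 9.11 CPM and from 72.0 ± 0.634 to 48.7 ± 1.61 CPM. UGCG, which makes the glucosylceramide before it, rose from 140.0 ± 9.68 to 197.1 ± 5.30 CPM. Of the called genes of this list only UGCG went in the direction of ST3GAL5. Among 9 tested genes of glycosphingolipid breakdown 5 rose and 0 fell (55.6% called, median 0.22), the changes reaching at most 1.30-fold. GM2A, the GM2 activator, rose from 28.8 ± 0.418 to 35.6 ± 0.933 CPM and the ganglioside sialidase NEU3 from 34.4 ± 1.77 to 40.5 ± 0.793 CPM. PSAP, the most abundant of them, stood at 406.8 ± 17.8 and 367.7 ± 5.69 CPM (adjusted p = 0.102).

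**Figure D4:**
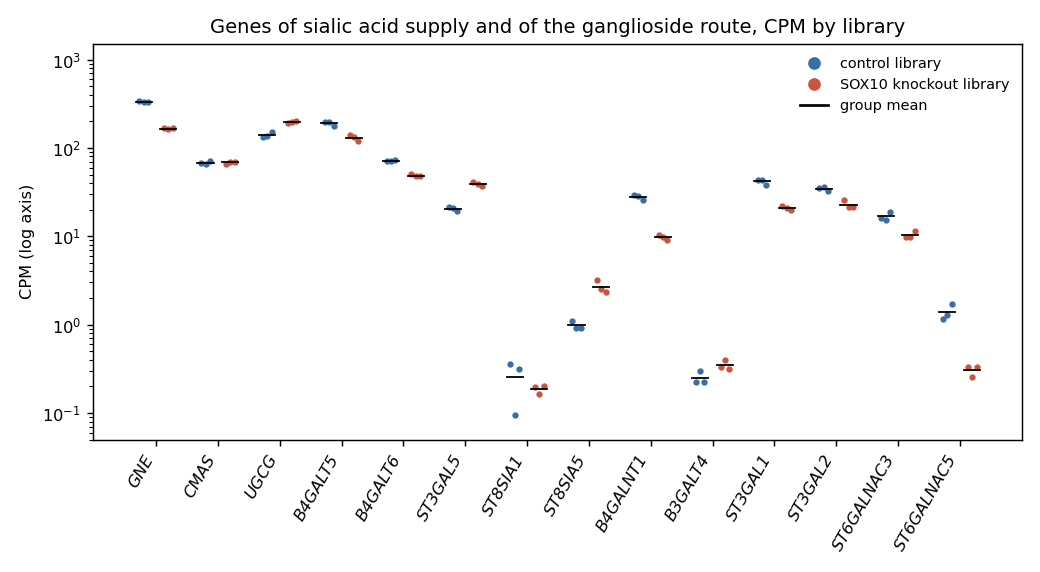
CPM (log axis) of 14 genes of sialic acid supply and of the ganglioside route, with 1 point a library (blue control, red SOX10 knockout) and a line at each group mean. ST3GAL5 and ST8SIA5 lie higher in knockout libraries while GNE, B4GALNT1 and ST6GALNAC5 lie lower, and ST8SIA1 overlaps below 1 CPM.

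In the supply of sialic acid 2 of 8 tested genes fell and 0 rose (median -0.04); the share called, 25.0%, was close to the 28.0% of all tested genes. GNE, the enzyme that starts sialic acid synthesis, fell 2.02-fold, from 334.3 ± 4.16 to 165.4 ± 3.39 CPM (adjusted p = 2.39e-06, edgeR test). NPL, which splits sialic acid, fell from 9.74 ± 0.235 to 8.10 ± 0.300 CPM. The remaining 6 tested genes of the list, which bear on the later steps, transport and acetylation, did not pass. In fucose supply and removal 3 of 10 rose and 0 fell (median 0.00), a share of 30.0%, also close to that of all tested genes. The lysosomal fucosidase FUCA1 rose from 20.9 ± 0.725 to 36.4 ± 1.82 CPM and FUCA2 from 40.8 ± 2.60 to 54.9 ± 1.23 CPM, and the GDP-fucose carrier SLC35C1 rose from 20.5 ± 0.142 to 24.8 ± 0.372 CPM. POFUT1, the most abundant of the list, did not pass (adjusted p = 0.796).

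In O-glycan extension after the GALNT step and donor supply, 4 of 9 tested genes rose and 1 fell (55.6% called, median 0.32). GCNT3, a branching enzyme of mucins, went up from 0.266 ± 0.0559 to 2.38 ± 0.198 CPM (log2 fold change 3.15, SE 0.19; edgeR test, adjusted p = 5.71e-06), while its relative GCNT1 fell from 13.6 ± 0.299 to 10.0 ± 0.697 CPM. UAP1, of nucleotide sugar synthesis and the most abundant of the list, rose from 281.8 ± 27.5 to 352.0 ± 25.3 CPM, and GALK2 rose from 22.9 ± 1.05 to 28.5 ± 1.66 CPM. Of 10 glycoproteins known to carry these glycans 5 rose and 4 fell (90.0% called, median 0.32). The polysialic acid carriers NRP2 and CADM1 fell, NRP2 from 99.1 ± 10.4 to 52.5 ± 5.24 CPM and CADM1 from 89.6 ± 3.47 to 33.6 ± 1.27 CPM. NCAM1, the best known carrier of polysialic acid and named after its values were seen, fell from 2.75 ± 0.324 to 1.06 ± 0.145 CPM, whereas ST8SIA4 rose. DAG1, the dystroglycan gene, fell from 302.5 ± 27.0 to 173.8 ± 13.3 CPM. CD24 rose from 1.52 ± 0.137 to 9.23 ± 0.0195 CPM, PODXL from 51.5 ± 4.21 to 104.7 ± 10.1 CPM, MCAM from 186.9 ± 6.58 to 237.8 ± 6.40 CPM and CD44, the most abundant, from 1058.9 ± 32.9 to 1295.9 ± 64.9 CPM.

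**Figure D5:**
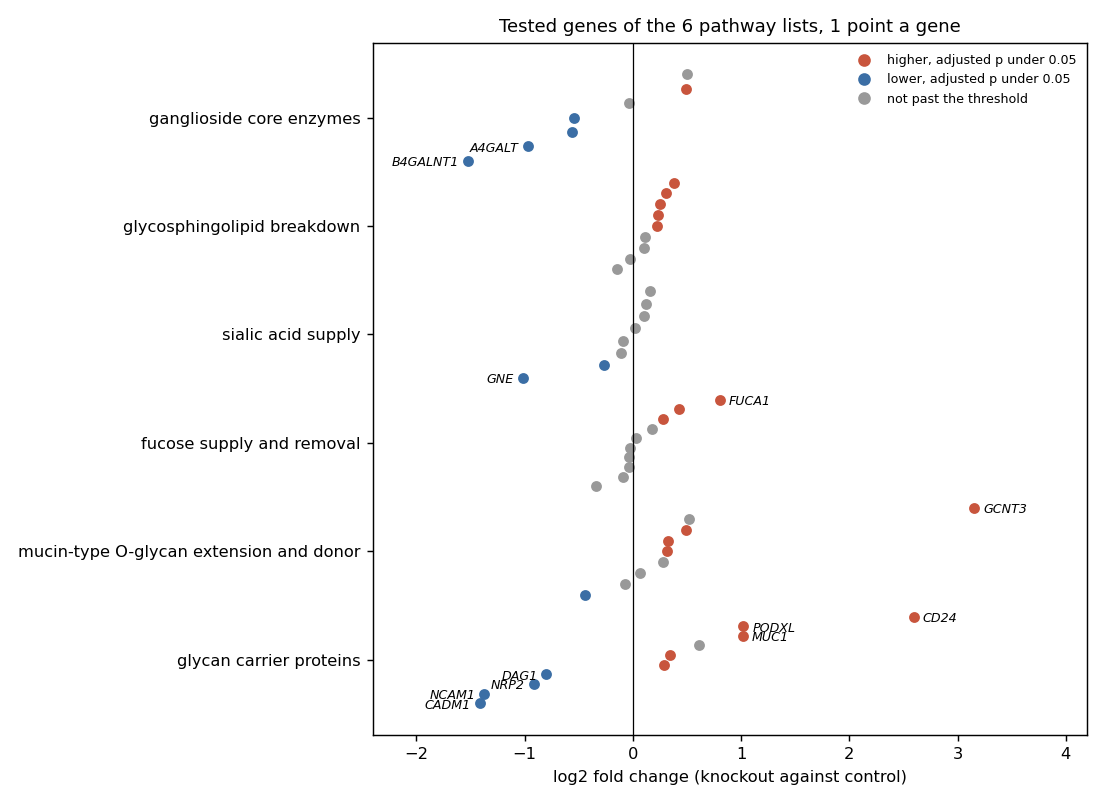
Log2 fold change of knockout against control (horizontal axis) for the tested genes of 6 pathway lists, with 1 point a gene, red for higher and blue for lower at an adjusted p under 0.05 and grey for not past it. GCNT3 lies highest at 3.15 and B4GALNT1 lowest at -1.53, and the points of the breakdown list sit between -0.15 and 0.38.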

How the data were processed

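The deposited values are unnormalized read counts by gene, in 1 column a library; HISAT2, HTSeq and the build hg38 are named without versions or strand setting, per the submitters' processing notes, and the kit was a stranded mRNA kit, per the labels' protocols. All 58721 identifiers matched GENCODE release 29 (GRCh38), which gave symbols, types, positions and exon lengths. Genes were kept by filterByExpr (19263), scaled by TMM and tested with edgeR 4.0.16 in R 4.3.3. The quasi-likelihood test was two-sided, without covariates, with Benjamini-Hochberg adjustment over all tested genes and a threshold of 0.05. Each SE was derived from that test, as the size of the log2 fold change divided by the square root of the F statistic. The test was checked on simulated counts. CPM use the TMM-scaled library sizes, and per-kb levels divide them by exon length. No pair of replicates matched within sampling noise. Any member could be named; from each pathway list, the rule took up to 3 called genes of smallest p in each direction and the most abundant gene. The values of 1 gene that the rule took are not reported here. The rule for members uses names alone, but the gene families it names (the members) and the lists were chosen with earlier results of these data known. Promoter sequences are from RefSeq (GRCh38.p14). Alternatives used DESeq2 1.42.0, limma-voom (limma 3.58.1), other scalings and filters, a replicate block, and each library left out. Tables used Python 3.11.15, numpy 2.4.6, pandas 2.3.3, scipy 1.17.1 and matplotlib 3.10.9.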

Additional observations from a re-analysis of the deposited data

How the results depend on the processing

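Of the 18 members past the threshold, 17 kept their direction and call in all 13 alternatives; GALNT11 lost its call in 9, with log2 fold changes of -0.21 to -0.15. Members higher numbered 9 to 11 and members lower 8 to 9 over the alternatives. The labels do not say whether a replicate number marks a shared culture or batch. Deviations from the group means correlated at 0.302, -0.00438 and 0.314 for the same-numbered pairs 1, 2 and 3. Control replicate 1 with knockout replicate 3 gave -0.284, and control replicate 3 with knockout replicate 1 gave -0.332. Control replicate 2 correlated best with knockout replicate 1 (0.0585), but its correlations all lay near 0 and cannot tell a pairing. As the labels give no pairing, none was assumed in the main fit. With the replicate number as a block (replicate block) 4637 genes were higher and 5176 lower, and FUT8 (adjusted p = 3.80e-04) and FUT9 (0.0183) were also called. That fit called 20 of the 31 tested members, a share closer to that of all 19263 tested genes than in the main fit. Leaving out each library in turn gave 1986 to 2935 higher and 1794 to 2958 lower genes, 9 to 10 members higher and 8 to 9 lower. Of the 13 members not past the threshold 5 changed sign when a library was left out, with log2 fold changes from -0.0156 to 0.0685 for GALNT2, -0.0543 to 0.0920 for FUT10, -0.0211 to 0.0903 for FUT11, -0.11 to 0.22 for FUT2 and -0.35 to 0.15 for ST3GAL3. The cause was not tested. At a few counts a library, as for ST8SIA1, small changes are not detectable.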

Other observations

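The table holds 8 rows whose symbols begin with a member's name but which are not protein-coding genes, and 2 of them were tested. ST3GAL5-AS1, a non-coding gene named for ST3GAL5, had 10, 8 and 10 counts in control and 26, 36 and 31 counts in knockout libraries. It rose 3.13-fold (log2 fold change 1.65, SE 0.29; edgeR test, adjusted p = 0.00309), beside the 1.90-fold rise of ST3GAL5, with which it shares no exon bases in the annotation. Its span (chromosome 2, 85889280 to 85890980, plus strand) lies within that of ST3GAL5 (85837120 to 85905199, minus strand). As the sources do not state whether counting used strand, the reads of ST3GAL5-AS1 cannot be assigned with certainty. ST3GAL6-AS1 had 16 to 38 counts a library and was not called (-0.51 on the log2 scale, edgeR test, adjusted p = 0.391). The other 6 had at most 20 counts in a library, reached by FUT8-AS1 in knockout replicate 2.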
